A study of Canis lupus familiaris with 12 samples.

Results

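Haem is built from glycine and succinyl-CoA by a chain of enzymes that starts and ends in the mitochondrion and passes through the cytosol in between. The genes described here are ALAS1 and ALAS2, which encode the isoenzymes of the first step, and ALAD, UROS, UROD, CPOX, PPOX and FECH, which encode later enzymes of the chain. They were chosen by name, with earlier results of these data known. All 8 were represented on the array by 16 probe sets, out of 15115 named genes and 42924 probe sets tested.

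Messenger RNA was measured in C2, a cell line from a mast cell tumour of a dog, in which a tandem duplication in KIT, the receptor for stem cell factor, leaves the receptor active without its ligand. Masitinib, a small-molecule inhibitor, acts on KIT and on some related tyrosine kinases. Untreated C2 cultures (0 h) were compared with C2 cultures kept in 100 nM masitinib for 12, 24 and 72 h, on 12 Affymetrix Canine Genome 2.0 arrays, 3 at each time. The KIT mutation was shared by every group, and all replicates were cultures of this single line, so p-values reflect only how far these cultures varied. No untreated culture of a later time is analysed here, and the effect of masitinib and that of longer culture cannot be told apart.

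In developing red cells ALAS2 makes the bulk of the haem for haemoglobin, and its messenger RNA carries an iron-responsive element that links its translation to iron supply. ALAS1 serves the other cell types and is repressed by haem itself. Mast cells need haem for mitochondrial cytochromes and for enzymes such as the cyclooxygenases that start prostaglandin synthesis.

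The deposited log2 values were made with quantile normalization, and array medians lay between 5.889 and 5.947. A gene was said to have risen or fallen where the limma test gave a Benjamini-Hochberg adjusted p under 0.001 over all probe sets and the change exceeded 1.5-fold. A gene with several probe sets was represented by the one with the highest mean over all arrays. Levels are compared within a probe set only, because brightness differs between probe sets for reasons other than the amount of RNA. In whole cultures, fewer cells of a type and less RNA per cell cannot be told apart. As signs of RNA quality, the 3′ probe sets of GAPDH exceeded the 5′ probe sets by 0.39 ± 0.04, 0.28 ± 0.05, 0.34 ± 0.15 and 0.34 ± 0.05 on the log2 scale (SD, n = 3 each) at 0, 12, 24 and 72 h. All 12 h arrays were below the 0 h arrays in this measure. For actin the difference was 0.78 ± 0.22, 0.64 ± 0.30, 0.86 ± 0.23 and 1.02 ± 0.25 (SD, n = 3 each), highest on average at 72 h. The part of either measure in the results was not tested.

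After 72 h with masitinib, messenger RNA of UROS, ALAS2, FECH and UROD was higher than before treatment, that of CPOX was lower, and ALAS1, ALAD and PPOX did not pass the test. The rises were 2.62-fold, 2.21-fold, 1.99-fold and 1.80-fold, respectively, and CPOX fell to a ratio of 0.360. Thus 4 of 8 genes rose and 1 fell, against 8.73% rising and 11.0% falling among all genes. At 24 h 2 genes rose, FECH and UROS, and CPOX fell, where the background was 8.01% rising and 10.0% falling. At 12 h no haem synthesis gene rose and CPOX fell, with 4.26% rising and 6.30% falling among all genes. At an unadjusted p under 0.05 from limma, 5 of the 8 genes were higher and 1 was lower at 12 h, against 19.8% higher and 20.6% lower among all genes. The median log2 change of the 8 genes was 0.16, 0.48 and 0.62 at 12, 24 and 72 h, beside 0.01, 0.03 and 0.02 over all genes. The 3 comparisons share the 0 h arrays and are not independent of each other.

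**Figure D1:**
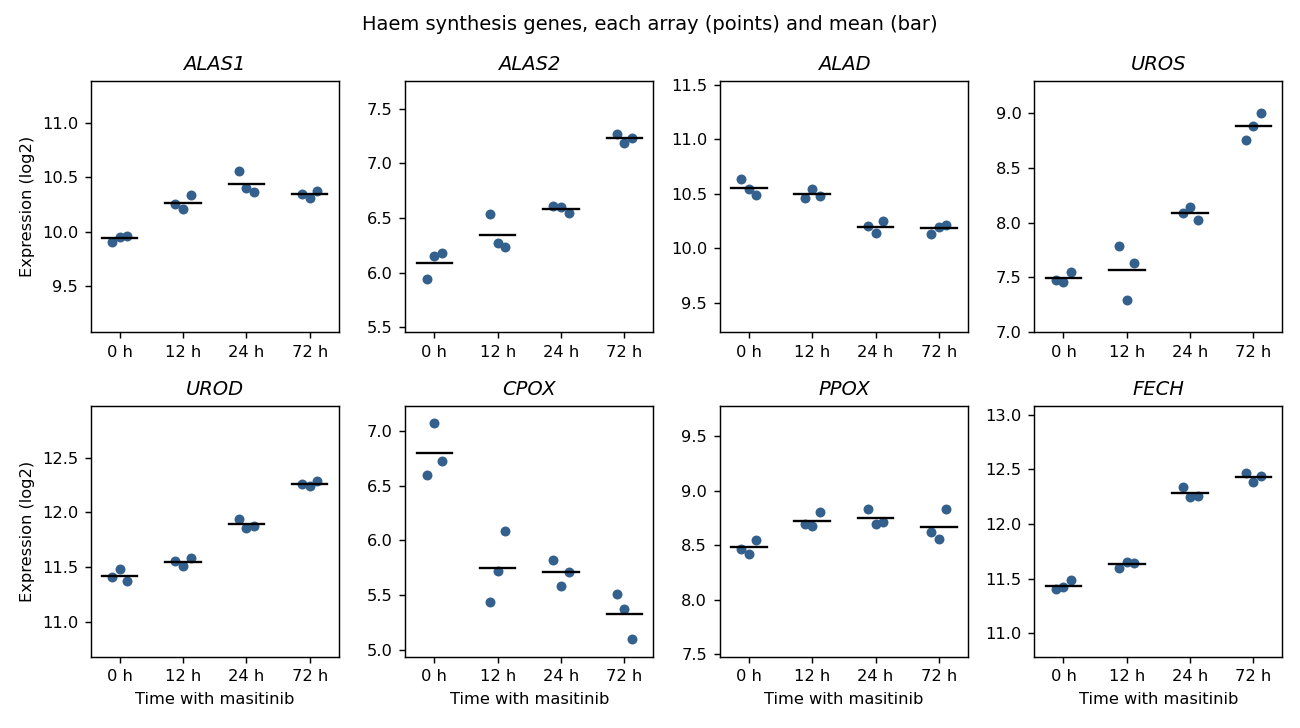
Log2 expression (vertical axis) of the 8 haem synthesis genes by time with 100 nM masitinib (horizontal axis, hours), brightest probe set of each gene. Points are single arrays and horizontal bars are means (n = 3); every panel spans the same number of log2 units around its own centre. CPOX went from a mean of 6.80 at 0 h to 5.33 at 72 h, whereas UROS went from 7.49 to 8.88; under scaling to the poly-A controls most early rises turn to small falls.

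These directions depend on the assumption behind the normalization that arrays share 1 distribution. The 36 probe sets for bacterial poly-A control RNA read higher than at 0 h by 0.29, 0.60 and 0.47 on the log2 scale at 12, 24 and 72 h. Shifting the arrays to equal poly-A signal moved the median of all genes to -0.28, -0.57 and -0.45, and the share of falls among called genes went from 59.7% to 88.6% at 12 h, from 55.5% to 95.8% at 24 h and from 55.8% to 89.6% at 72 h. Among all genes 2.08% rose and 46.8% fell at 24 h on that scale, 3.58% rose and 30.7% fell at 72 h, and 0.377% rose and 8.06% fell between 12 and 24 h. The counts with poly-A scaling given below, for the 8 genes and for other gene lists, stand against these shares. The amounts of control RNA added are not given in the sources used here. With poly-A scaling the median of the 8 genes was -0.13, -0.12 and 0.15, above the median of all genes at each time. UROS and ALAS2 still rose at 72 h, by 0.92 and 0.67, and CPOX and ALAD fell, by 1.94 and 0.84.

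**Figure D2:**
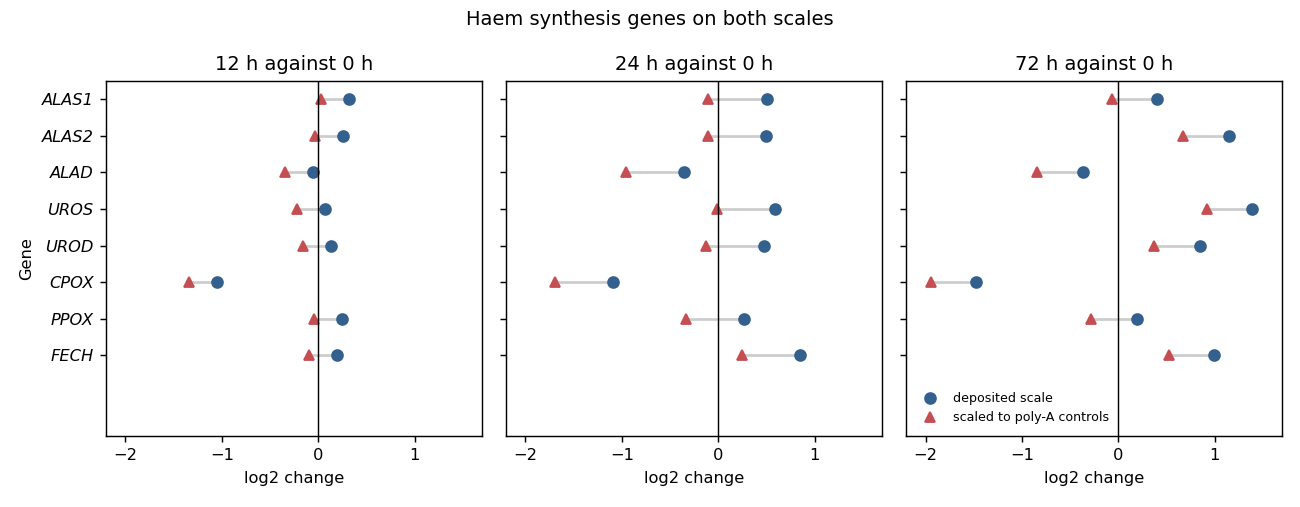
Log2 change (horizontal axis) of each haem synthesis gene (vertical axis) at 12, 24 and 72 h against 0 h, on the deposited scale (circles) and after arrays were shifted to equal signal of the poly-A controls (triangles); n = 3 arrays per time point. All triangles lie to the left of the circles, by 0.29, 0.60 and 0.47 at the 3 times, and only CPOX and ALAD are below 0 on both scales at every time.

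ALAS1 and ALAS2 join glycine to succinyl-CoA to form 5-aminolevulinic acid, the rate-setting step of the chain. The ALAS2 arrays read 5.94, 6.15 and 6.18 at 0 h, 6.53, 6.27 and 6.24 at 12 h, 6.61, 6.60 and 6.54 at 24 h, and 7.27, 7.19 and 7.23 at 72 h. All arrays at a later time were above all arrays at 0 h, and those at 72 h stood apart from every other array. The mean went from 6.09 ± 0.13 to 7.23 ± 0.04 (SD, n = 3), a log2 change of 1.14 with a 95% interval of 0.95 to 1.33 (adjusted p = 1.97e-07, limma). ALAS2 had 1 probe set, whose values at 0 h lay close to the array medians of 5.889 to 5.947. No detection calls were at hand for it. At 12 and 24 h the changes were 0.26 (adjusted p = 0.0397) and 0.49 (adjusted p = 0.000431), both under 1.5-fold, and both turned to -0.03 and -0.11 with poly-A scaling.

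ALAS1 read 9.91, 9.95 and 9.97 at 0 h, 10.25, 10.21 and 10.33 at 12 h, 10.55, 10.40 and 10.37 at 24 h, and 10.35, 10.31 and 10.37 at 72 h. Every array with masitinib was above every array at 0 h, and the arrays at 24 and 72 h overlapped. The log2 changes were 0.32, 0.50 and 0.40, with adjusted p of 0.00174, 3.17e-05 and 0.000197 from limma, and none reached 1.5-fold. With poly-A scaling they were 0.03, -0.10 and -0.07. From 24 to 72 h ALAS2 rose by a further 0.65 (adjusted p = 0.000174, limma) and ALAS1 changed by -0.10 (adjusted p = 0.364), and the difference between these changes was not tested.

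ALAD, a zinc enzyme, condenses 5-aminolevulinic acid to the pyrrole porphobilinogen. Its brighter probe set read 10.63, 10.54 and 10.49 at 0 h, 10.46, 10.54 and 10.48 at 12 h, 10.21, 10.14 and 10.25 at 24 h, and 10.13, 10.20 and 10.22 at 72 h. The first 2 time points overlapped, and all arrays at 24 and 72 h were lower than these. At 24 and 72 h the log2 changes were -0.35 and -0.37, which had adjusted p of 0.000368 and 0.00024 (limma) but were under 1.5-fold, so ALAD was not counted as having fallen. The other ALAD probe set changed by -0.42 at 72 h. With poly-A scaling ALAD fell by 0.96 at 24 h (adjusted p = 2.34e-07) and by 0.84 at 72 h (adjusted p = 2.52e-06).

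UROS closes the linear tetrapyrrole into the ring of uroporphyrinogen III, and it showed the greatest rise of the 8 genes at 72 h. The brightest probe set read 7.47, 7.46 and 7.55 at 0 h, 7.78, 7.29 and 7.63 at 12 h, 8.09, 8.15 and 8.02 at 24 h, and 8.76, 8.89 and 9.00 at 72 h. The arrays at 0 and 12 h overlapped, those at 24 h were higher than both, and those at 72 h were higher again. The log2 change at 72 h was 1.39 with a 95% interval of 1.15 to 1.62 (adjusted p = 2.57e-07, limma). At 12 h it was 0.07 (adjusted p = 0.704), and without replicate 1 at 12 h it was -0.03.

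The call of UROS at 24 h was close to both thresholds, with a log2 change of 0.59, or 1.51-fold, and an adjusted p of 0.000619 from limma. It was lost when any of 8 arrays was left out. The adjusted p was then 0.00291, 0.00341 and 0.00183 without 0 h replicates 1, 2 and 3. It was 0.00285, 0.00371 and 0.00182 without 24 h replicates 1, 2 and 3, 0.00107 without 12 h replicate 3 and 0.00118 without 72 h replicate 2. The change was -0.01 with poly-A scaling.

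A second UROS probe set behaved like the brightest one, at 7.13, 7.12 and 6.95 at 0 h and 8.45, 8.36 and 8.62 at 72 h, a log2 change of 1.41. The third read between 3.44 and 3.74 on all 12 arrays and changed by -0.07. No detection calls were at hand, so whether this dim probe set measured any UROS transcript was not tested.

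UROD removes carboxyl groups from the side chains of uroporphyrinogen to give coproporphyrinogen. Its single probe set read 11.41, 11.48 and 11.37 at 0 h, 11.56, 11.51 and 11.58 at 12 h, 11.94, 11.86 and 11.88 at 24 h, and 12.26, 12.24 and 12.28 at 72 h. No time point overlapped another. The log2 changes were 0.13 at 12 h (adjusted p = 0.111), 0.47 at 24 h (adjusted p = 1.43e-05, under 1.5-fold) and 0.84 at 72 h, where the 95% interval was 0.72 to 0.97 and the adjusted p from limma was 5.74e-08. With poly-A scaling the change at 72 h was 0.37 (adjusted p = 0.0115) and did not pass, and those at 12 and 24 h were -0.16 and -0.13.

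CPOX, an oxidase of the mitochondrial intermembrane space, turns coproporphyrinogen III into protoporphyrinogen IX and was the only one of the 8 genes to fall on the deposited scale. Its probe set read 6.60, 7.07 and 6.73 at 0 h, 5.44, 5.72 and 6.09 at 12 h, 5.82, 5.58 and 5.71 at 24 h, and 5.51, 5.38 and 5.10 at 72 h. All arrays with masitinib were below all arrays at 0 h, and arrays at 12 and 24 h overlapped. The mean went from 6.80 ± 0.25 to 5.33 ± 0.21 (SD, n = 3), a log2 change of -1.47 with a 95% interval of -1.83 to -1.12 (adjusted p = 7.7e-06, limma).

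The log2 change of CPOX was -1.05 at 12 h (adjusted p = 0.000277) and -1.09 at 24 h (adjusted p = 0.000125). The 12 h call was lost without 0 h replicate 2, 0 h replicate 3, 12 h replicate 1 or 12 h replicate 2, with adjusted p of 0.00159, 0.00107, 0.00147 and 0.00171 from limma. Poly-A scaling lowers every change against 0 h, so it could only deepen the fall of CPOX, to -1.34, -1.70 and -1.94 at the 3 times. CPOX had only 1 probe set, and its SD at 0 h was wider than that of the other 7 genes. All CPOX arrays at 24 and 72 h, and replicates 1 and 2 at 12 h, read below the array medians of 5.889 to 5.947. Without detection calls, the part of dim signal in the size of the fall was not tested.

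PPOX oxidizes protoporphyrinogen IX to protoporphyrin IX. Its brighter probe set read 8.47, 8.42 and 8.55 at 0 h, 8.69, 8.67 and 8.80 at 12 h, 8.83, 8.70 and 8.72 at 24 h, and 8.62, 8.55 and 8.83 at 72 h. The log2 changes of 0.24, 0.27 and 0.19 had adjusted p of 0.0358, 0.0166 and 0.0762 from limma and did not pass. They turned to -0.05, -0.33 and -0.28 with poly-A scaling, and the other PPOX probe set changed by 0.14 at 72 h.

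FECH inserts ferrous iron into protoporphyrin IX to complete haem and itself holds an iron-sulphur cluster. Its brightest probe set read 11.40, 11.42 and 11.49 at 0 h, 11.59, 11.65 and 11.65 at 12 h, 12.34, 12.25 and 12.26 at 24 h, and 12.46, 12.39 and 12.44 at 72 h. No time point overlapped another, and the widest gap lay between 12 and 24 h. The log2 changes were 0.19 at 12 h (adjusted p = 0.0197), 0.84 at 24 h (adjusted p = 6.89e-08) and 0.99 at 72 h, where the 95% interval was 0.87 to 1.11 and the adjusted p from limma was 1.38e-08.

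All 5 FECH probe sets rose at 72 h, by 0.62 to 0.99, and 3 of them at 24 h. With poly-A scaling the brightest one changed by -0.10, 0.24 and 0.52 at 12, 24 and 72 h, and none of these passed.

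**Figure D3:**
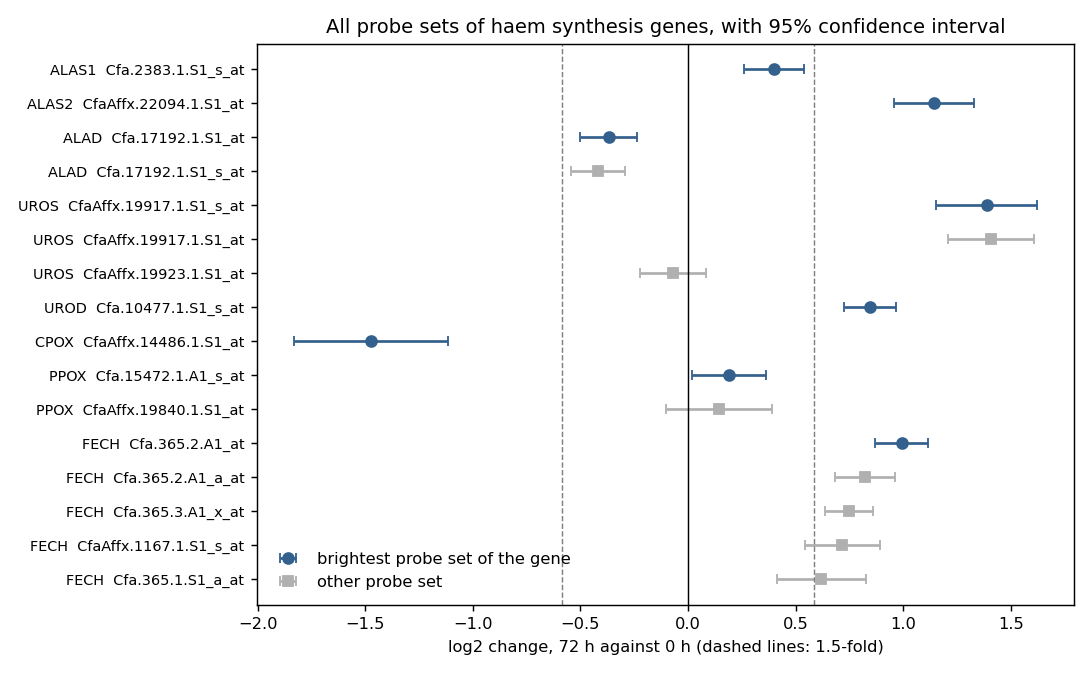
Log2 change at 72 h against 0 h (horizontal axis) of all 16 probe sets of the 8 haem synthesis genes on the deposited scale, with 95% intervals from limma; the dashed lines mark 1.5-fold and the brightest probe set of each gene is marked apart. The 5 FECH probe sets lie between 0.62 and 0.99, and the dim UROS probe set at -0.07 stands apart from the others of its gene at 1.39 and 1.41.

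Successive times were also compared directly, and differences between the intervals were not tested. Between 12 and 24 h 1 of 8 genes rose and 0 fell, where 1.41% of all genes rose and 3.10% fell. The gene that rose was FECH, with a log2 change of 0.65 (adjusted p = 4.04e-06, limma), which was 0.34 (adjusted p = 0.0411) with poly-A scaling. The second brightest FECH probe set rose by 0.62, and the others changed by 0.54, 0.53 and 0.44 and did not pass. With the mean of all probe sets the FECH change was 0.56 and did not pass. At an unadjusted p under 0.05 from limma, 1 of the 8 genes, ALAD, was lower, against 14.4% of all genes. ALAS1, ALAS2, UROS, UROD and FECH were higher at this cut, for which the share of all genes is not given. UROS changed by 0.52 in this interval (adjusted p = 0.00454) and did not pass, whereas its second probe set rose by 0.64 (adjusted p = 0.000297).

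Between 24 and 72 h 2 of 8 genes rose and 0 fell, where 1.96% of all genes rose and 1.81% fell. At an unadjusted p under 0.05 from limma, 1 gene, CPOX, was lower, against 16.2% of all genes. ALAS2, UROS, UROD and FECH were higher at this cut, for which the share of all genes is not given. UROS rose by 0.80 (adjusted p = 0.000198, limma) and ALAS2 by 0.65 (adjusted p = 0.000174), while FECH changed by 0.15 (adjusted p = 0.0958). Poly-A scaling raises every change in this interval, so it could only enlarge these rises, to 0.93 for UROS and 0.78 for ALAS2. On that scale the median of all genes was 0.13. The share of falls among called genes went from 48.0% to 24.9%. UROD changed by 0.34 and 0.37 in the 2 intervals, with adjusted p of 0.000776 and 0.00046 and less than 1.5-fold in each. CPOX changed by -0.38 between 24 and 72 h (adjusted p = 0.144). The ALAS2 call was lost without 24 h replicate 2, 24 h replicate 3 or 72 h replicate 1, with adjusted p of 0.00103, 0.00134 and 0.0012. The UROS call was lost without 24 h replicate 1, 24 h replicate 3, 72 h replicate 2 or 72 h replicate 3, with adjusted p of 0.00114, 0.00151, 0.00119 and 0.00116 from limma.

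**Figure D4:**
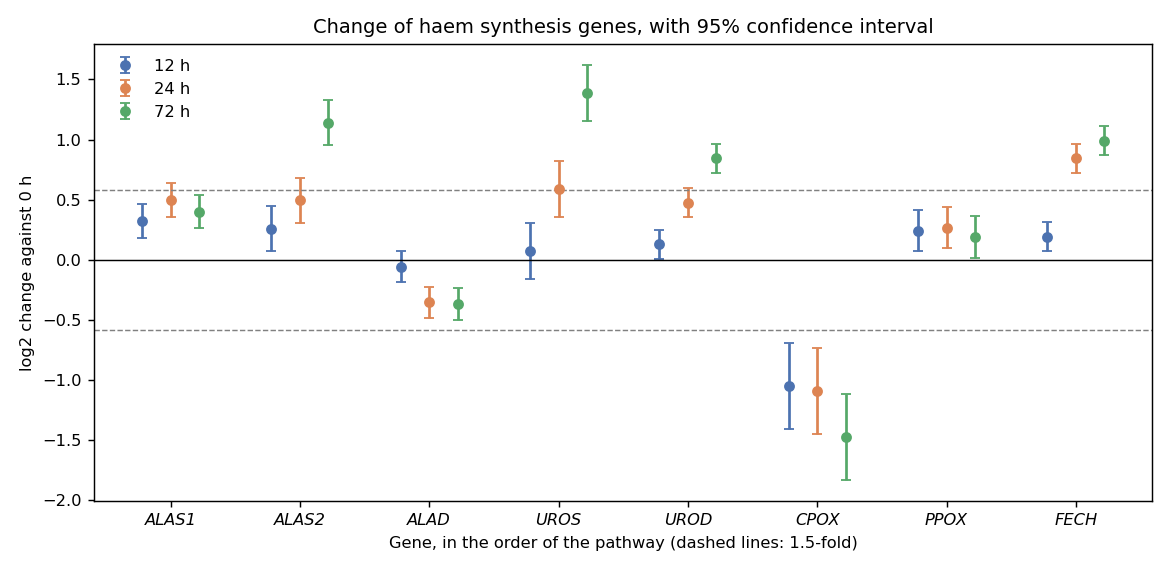
Log2 change (vertical axis) of each haem synthesis gene (horizontal axis, in pathway order) at 12, 24 and 72 h against 0 h (colours), brightest probe set, deposited scale; bars are 95% intervals from limma and dashed lines mark 1.5-fold (n = 3 arrays per time point). FECH was at 0.84 by 24 h and 0.99 by 72 h, whereas ALAS2 went from 0.49 to 1.14; with poly-A scaling ALAS2 is at -0.11 at 24 h and FECH at 0.24.

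The starting materials of haem come from the citric acid cycle and from glycine metabolism. Of 8 genes for succinyl-CoA and glycine supply, 2, 4 and 4 fell at 12, 24 and 72 h and 0 rose, with a median log2 change of -0.58 at 72 h. The falls at 72 h included SHMT2 (-1.04), the mitochondrial enzyme that converts serine to glycine, its cytosolic counterpart SHMT1 (-0.72), and DLST (-0.98), a subunit of the complex that makes succinyl-CoA. SLC25A38, the mitochondrial glycine carrier, was chosen after its values were seen and fell by 0.79 at 12 h and by 0.92 at 24 h, with a change of -0.47 at 72 h that was under 1.5-fold. With poly-A scaling 7 of the 8 genes fell at 72 h, where 30.7% of all genes fell. The deposited-scale counts of this list, and of the lists and markers below, stand against the shares among all genes. These were 4.26%, 8.01% and 8.73% rising and 6.30%, 10.0% and 11.0% falling at 12, 24 and 72 h.

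Porphyrins and haem are moved by dedicated carriers. Of 17 such genes 14 were measured, of which 3 rose and 3 fell at 72 h with a median log2 change of 0.12. HEBP2, a haem-binding protein, fell by 1.67 on the log2 scale, and FLVCR1, a haem exporter, was 2.84-fold lower. ABCG2, a transporter that exports porphyrins, rose by 0.90 but was among the rises lost with poly-A scaling, where 0 of the 14 rose and 4 fell.

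Of 5 genes for haem breakdown, 2 rose at 24 and 72 h and 0 fell. POR, the reductase that supplies electrons to haem oxygenase and to cytochromes P450, rose by 1.64 at 72 h, and BLVRA, which reduces biliverdin to bilirubin, by 0.85. The haem oxygenases HMOX1 and HMOX2, named after their values were seen, changed by -0.05 and -0.14 and did not pass. With poly-A scaling 1 gene of this list rose and 1 fell at 72 h. Of 3 genes for haem A synthesis and cytochrome attachment, HCCS, which fixes haem to cytochrome c, fell by 0.59 at 72 h and the others did not pass. With poly-A scaling all 3 fell.

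Haem is finally built into cytochromes and other enzymes. Of 14 genes for such proteins 13 were measured, and 1 rose and 5 fell at 72 h, with a median log2 change of -0.12. The gene that rose was PTGS1, a cyclooxygenase, named after its values were seen, which rose by 0.88 at 24 h and by 1.31 at 72 h on the log2 scale, or by 0.84 at 72 h with poly-A scaling. CYCS, the electron carrier cytochrome c, fell by 1.45, 1.72 and 1.48 at 12, 24 and 72 h. CYB5B, a cytochrome b5 of the outer mitochondrial membrane, fell by 1.48 at 72 h and CYC1, a subunit of respiratory complex III, by 1.38. With poly-A scaling 1 rose and 7 fell.

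Among 13 measured genes of 15 for iron uptake, storage and export, 1 rose and 1 fell at 72 h. TFRC, the transferrin receptor that brings iron into the cell, fell by 0.82, 1.32 and 1.28 at 12, 24 and 72 h (SE 0.12 each), and SLC40A1, the iron exporter ferroportin, rose by 0.63 at 72 h. With poly-A scaling 0 rose and 4 fell, and the median of the list went from 0.06 to -0.41.

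Of 15 genes for iron-sulphur clusters 11 were measured, and 2 rose and 3 fell at 72 h. HSPA9, a mitochondrial chaperone, fell by 1.16 and the assembly factor ISCA2 by 0.92, whereas BOLA3, which acts late in cluster assembly, rose by 0.78. With poly-A scaling 0 rose and 8 fell.

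Of 17 regulators of haem synthesis, 0 rose and 3 fell at 72 h with a median log2 change of -0.02. The falls were those of STAT5B (-0.90), a transcription factor activated by cytokine receptors, LONP1 (-0.63), a mitochondrial protease that degrades ALAS1, and NFE2 (-0.60), a factor of erythroid and megakaryocytic cells. GATA1 and KLF1, transcription factors that act at ALAS2, were named after their values were seen and changed by 0.46 (adjusted p = 0.00121, limma) and 0.09. Neither passed, and with poly-A scaling they changed by -0.01 and -0.38. With poly-A scaling 0 of the 17 rose and 8 fell.

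**Figure D5:**
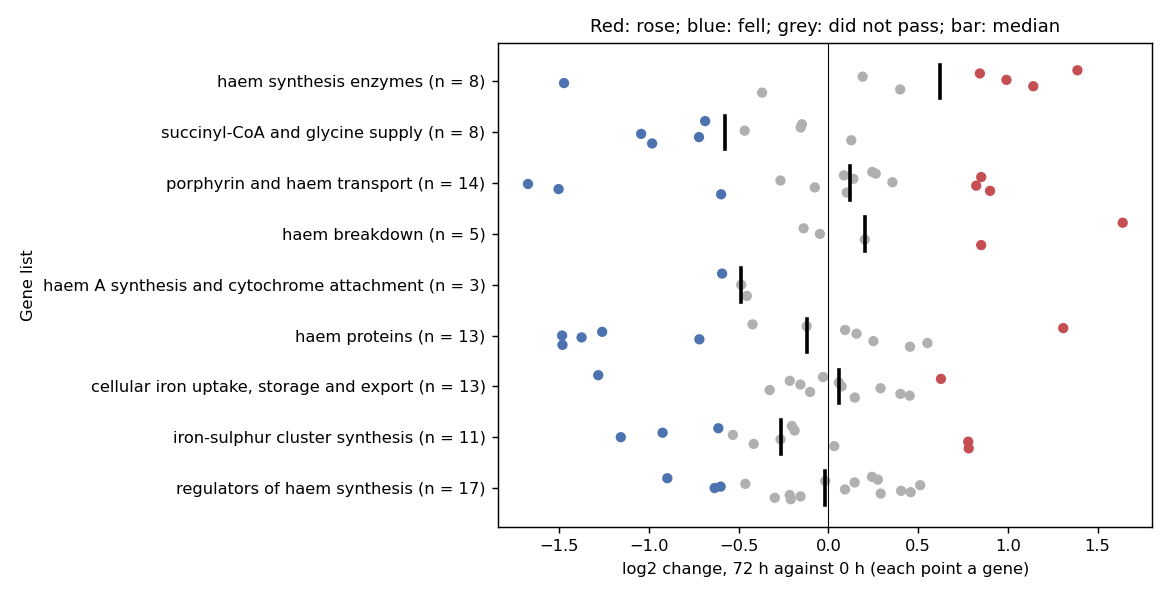
Log2 change at 72 h against 0 h (horizontal axis) of the measured genes of each list (vertical axis) around haem synthesis, deposited scale, brightest probe set per gene; points are genes, red where the gene rose, blue where it fell and grey where it did not pass, and the vertical marks are list medians. Supply genes for succinyl-CoA and glycine have a median of -0.58 and haem synthesis genes one of 0.62; with poly-A scaling these medians are -1.05 and 0.15.

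Because ALAS2 is the erythroid isoenzyme, markers of red cell precursors were read beside it. Of 24 erythroid markers 14 were measured, 5 of them below the median level of the arrays. EPB42, a red cell membrane protein, rose by 1.32, 1.59 and 2.98 at 12, 24 and 72 h. EPOR, the erythropoietin receptor, rose by 0.78, 1.03 and 1.40, and the embryonic globin HBE1 rose by 1.08 at 24 h and 1.11 at 72 h. CA2, a carbonic anhydrase of red cells and other tissues, fell by 3.19 at 72 h. The remaining 10 measured markers did not pass at 72 h, and the median log2 change of the list was 0.20. The mean log2 level of the 14 markers was 6.51 to 6.62 on the 0 h arrays and 6.75 to 6.90 on the 72 h arrays, and their summed linear level was 4095 to 4222 and 4021 to 4442. This sum holds both the fall of CA2, from a mean log2 level of 9.98 to 6.79, and the rises of EPB42, EPOR and HBE1. A steady sum therefore does not mean steady markers. The globins HBB and HBA are among the markers not analysed here. With poly-A scaling 3 markers rose and 1 fell at 72 h, and the part of these markers in the result for ALAS2 was not tested.

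Mast cell markers were read in the same way. Of 15 markers 12 were measured, and only TPH1, the enzyme that starts serotonin synthesis, lay below the array median, at 3.31 to 3.57 on the single arrays. Of the 12 markers 1, 7 and 5 rose at 12, 24 and 72 h and 0 fell, and their mean log2 level was 11.07 to 11.15 at 0 h and 11.76 to 11.92 at 72 h. With poly-A scaling 0 rose and 1 fell at 24 h, and 1 rose and 0 fell at 72 h. KIT itself, the target of masitinib, changed by 1.12, 1.31 and 0.90 at 12, 24 and 72 h and did not pass (adjusted p = 0.00911, 0.00232 and 0.0229, limma).

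As a description, the genes whose profile over the 12 arrays was most like that of UROS, among 2928 genes with a range above 1, were CDKN1A, ARMC12 and PECAM1, with Pearson's r of 0.994, 0.984 and 0.983. CDKN1A encodes a cell cycle inhibitor and changed by 1.56 at 72 h. Those most like CPOX were PDS5A, MTRR and FOXJ3, with r of 0.979, 0.972 and 0.967. The points of these correlations share the arrays and the 4 time points, and replicates of a time point are not independent of it.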

How the data were processed

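C2 cells were measured on 12 arrays, 3 each at 0, 12, 24 and 72 h with 100 nM masitinib. Partek's gcRMA workflow was run by the authors, who corrected background, quantile-normalized the arrays and summarized probes by median polish. The deposited table gives the resulting log2 expression of each probe set on each array. Such normalization removes a change shared by most transcripts. All further steps used R 4.3.3 with limma 3.58.1, and figures used Python 3.11.15 with matplotlib 3.10.9.

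Of 43035 probe sets, 111 controls were set aside. In the platform annotation 29254 of the rest had 1 gene symbol, 439 several and 13231 none, and genes were named from those with 1 symbol. One limma model (lmFit, eBayes) with a coefficient per time point covered all 42924 tested probe sets, with Benjamini-Hochberg adjustment. Genes were called at adjusted p under 0.001 with more than 1.5-fold change, the thresholds of the methods. The median residual SD was 0.112, and the number of arrays limits the precision.

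The members and lists were chosen with earlier results of these data known. Named genes are the haem synthesis genes, the called genes of every other list with the largest changes at 72 h (at most 3), KIT, called erythroid markers, mast cell markers below the array median, and the 3 genes most like UROS and CPOX. SLC25A38, HMOX1, HMOX2, GATA1, KLF1 and PTGS1 were named outside this rule, after their values were seen. On simulated data for 72 h against 0 h with 42924 probe sets, 83% of 100 probe sets changed 2-fold and 100% of 100 changed 4-fold were called, with 1 false call. Alternatives covered thresholds, test, arrays fitted, dim probe sets, scaling, probe set choice, replicate block and each array left out. Protein and proliferation samples are not analysed here.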

Additional observations from a re-analysis of the deposited data

Results flagged for a closer look

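Among the 8 haem synthesis genes, 3 passed the test in direct limma contrasts of 24 h against 12 h or of 72 h against 24 h, which do not use the 0 h arrays as a side. A contrast of 72 h against 12 h was not run. ALAS2 was higher at 72 h than at 24 h by 0.65 on the log2 scale (adjusted p = 0.000174), with all 3 arrays at 72 h above all 3 at 24 h. UROS was higher at 72 h than at 24 h by 0.80 (adjusted p = 0.000198), again with no overlap of the arrays. FECH was higher at 24 h than at 12 h by 0.65 (adjusted p = 4.04e-06), also with no overlap. The ALAS2 and UROS differences did not pass in some fits without 1 array, and the FECH difference was 0.34 with poly-A scaling (adjusted p = 0.0411). The UROS and FECH differences also did not pass with the mean of all probe sets, at 0.52 and 0.56.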

How the results depend on the processing

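Shares of all genes are given for the main thresholds and, in some comparisons, for poly-A scaling. For the other settings below they are not given. Counts at those settings show only how the calls of the haem synthesis genes moved, not whether they stood out among all genes. The number of haem synthesis genes that rose at 72 h was 4, and was 5 with no fold threshold, 2 at more than 2-fold and 2 with poly-A scaling. The number that fell at 72 h was 1, and was 2 with no fold threshold and 2 with poly-A scaling, since ALAD was then added. With poly-A scaling 30.7% of all genes fell at 72 h. At 24 h 2 rose, against 5 with no fold threshold, 0 at more than 2-fold, 0 with poly-A scaling, and 1 each with analysis of variance and Storey q-values, cyclic loess, equal medians, the mean of all probe sets and the replicate block, where UROS had an adjusted p of 0.0014 from limma. The replicate block changed no other count, and the deviations of same-numbered arrays correlated at -0.329 to 0.411, not above 0.1 in every pair, with 6 of 12 arrays most like one of their own number, so the numbers were not taken as pairs. Replicate 1 had the lowest poly-A signal at all 4 times. At 24 h 1 fell, against 2 with no fold threshold, 0 with analysis of variance and 2 with poly-A scaling. With poly-A scaling 46.8% of all genes fell at 24 h. At 12 h 1 fell, against 0 with analysis of variance and 0 with only the arrays compared. Between 12 and 24 h 1 rose, against 2 with no fold threshold, 0 at more than 2-fold, 0 with poly-A scaling, 0 with the mean of all probe sets and 2 with the probe set of largest change, and 0 fell against 1 with poly-A scaling. Between 24 and 72 h 2 rose, against 3 with no fold threshold, 0 at more than 2-fold, 1 with analysis of variance and 1 with the mean of all probe sets. With single arrays left out, the count ranged from 0 to 1 for falls at 12 h, from 1 to 2 for rises at 24 h and from 0 to 2 for rises between 24 and 72 h.

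Log2 changes against 0 h that turned sign with poly-A scaling were those of ALAS1 at 24 h (-0.10) and 72 h (-0.0711), ALAS2 at 12 h (-0.0347) and 24 h (-0.11), UROS at 12 h (-0.22) and 24 h (-0.0117), UROD at 12 h (-0.16) and 24 h (-0.13), PPOX at 12, 24 and 72 h (-0.0494, -0.33 and -0.28) and FECH at 12 h (-0.10). Between 12 and 24 h ALAS1 (-0.13), ALAS2 (-0.07) and PPOX (-0.28) turned, and between 24 and 72 h ALAS1 (0.03), ALAD (0.12) and PPOX (0.05). The UROS change at 12 h ranged from -0.0341 to 0.212 with single arrays left out. Poly-A scaling by construction shifts every change in a comparison by the same amount. For the other changes the cause was not tested.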
